A study of Mus musculus with 8 samples.

Results

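The T-box genes encode transcription factors that share a DNA-binding domain, the T-box. In embryonic tongue buds of mice that lost the TGF-beta receptor gene Alk5 in the neural crest, 1 of 9 T-box genes passed the test. This share of 11.1% is near the 9.72% of all genes that passed. The gene, Tbx15, fell to 47.3% of the control level on its brightest probe set and to 68.6% on its other set. The other 8 did not pass the test on their brightest probe set, and 7 of these differed from the controls by no more than 0.08 on the log2 scale. The genes are Tbx1, Tbx2, Tbx3, Tbx4, Tbx5, Tbx15, Tbx18, Tbx20 and Tbx22. They were taken as every probe set whose platform annotation names exactly 1 gene, that gene being one of the 9, which gave 19 probe sets of the 34945 that name 1 gene. These 34945 probe sets stand for 18193 genes.

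The mutant group was made of 4 tongue buds with Wnt1-Cre and Alk5 fl/fl, and the control group of 4 tongue buds with Alk5 fl/fl and no Cre in their labels, all C57BL/6J embryos at embryonic day 13.5. Both groups carry the floxed receptor gene. Wnt1-Cre acts in the neural crest lineage, which in the head includes connective tissue and the pericytes and smooth muscle of vessels, while muscle precursors, epithelium and endothelium arise from other lineages. No group carried Wnt1-Cre without the floxed alleles, and what the Cre transgene does by itself cannot be told apart from what loss of the receptor does. Each bud was hybridised to a one-colour Affymetrix array, and the values are log2 expression values per probe set. The labels do not say whether the buds of a group came from separate litters, so p-values measure only the spread between these samples.

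T-box proteins bind short DNA sites as activators or repressors, and several family members are dosage-sensitive in embryos. In the head, Tbx1 acts in pharyngeal mesoderm and arch epithelium, Tbx22 in palate and tongue mesenchyme, and Tbx15 and Tbx18 in mesenchyme of the head and limbs. Human TBX22 mutations cause cleft palate with a tethered tongue. Tbx2 and Tbx3 are repressors induced by BMP signals, while Tbx4 and Tbx5 are known for their part in limb and lung buds and Tbx20 for its part in the heart and in cranial motor neurons.

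RefSeq (GRCm38.p6) supplied promoters for 5 of the 9 genes, namely Tbx1, Tbx4, Tbx18, Tbx20 and Tbx22. The 250 bases before the annotated start are shown for Tbx18, Tbx20 and the first of 3 starts of Tbx22, with CpG dinucleotides in capitals. Tbx22 is the palate and tongue gene. Tbx18 and Tbx20 are the genes other than Tbx15 with a probe set at an unadjusted limma p under 0.05. Tbx18 did not pass after adjustment. The stretches lie at chr9:87731261-87731510 on the minus strand, at chr9:24774304-24774553 on the minus strand and at chrX:107667714-107667963 on the plus strand.
Tbx18: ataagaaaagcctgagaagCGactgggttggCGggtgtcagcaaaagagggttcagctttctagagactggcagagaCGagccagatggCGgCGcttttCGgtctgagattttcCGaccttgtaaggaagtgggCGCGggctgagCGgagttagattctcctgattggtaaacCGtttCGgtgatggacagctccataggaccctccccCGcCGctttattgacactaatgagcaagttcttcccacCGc
Tbx20: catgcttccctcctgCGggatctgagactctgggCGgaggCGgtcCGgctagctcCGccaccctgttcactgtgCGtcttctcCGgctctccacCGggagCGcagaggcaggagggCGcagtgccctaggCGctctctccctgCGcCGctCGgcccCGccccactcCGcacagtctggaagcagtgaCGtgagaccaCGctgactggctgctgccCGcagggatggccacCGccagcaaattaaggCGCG
Tbx22: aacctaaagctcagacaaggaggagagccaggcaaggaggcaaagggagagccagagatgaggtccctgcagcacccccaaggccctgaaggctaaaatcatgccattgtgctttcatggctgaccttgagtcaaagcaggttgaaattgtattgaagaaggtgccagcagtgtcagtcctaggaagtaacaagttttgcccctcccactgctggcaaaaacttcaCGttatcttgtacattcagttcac

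The promoters differ in CpG content. The Tbx20 stretch holds 22 CpG dinucleotides and the Tbx18 stretch 15, against a median of 6 over the 32851 promoters of the same length, while the Tbx22 stretch holds 1. A T-box site (GGTGTGA, either strand) and a site for BMP-activated Smad proteins (GGCGCC, either strand; the motifs do not overlap each other) were searched in all 8 stretches of the 5 genes. Neither was found in any of them, with 3.33% and 9.59% of all promoters holding the T-box and the Smad letters. No match says only that these letters are not in these windows.

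The array medians were 5.96 to 6.01. The deposited processing aligns the arrays, so these medians do not show that the arrays are alike. Tgfbr1, the symbol of Alk5, read higher in mutants on its brightest probe set, by 0.39 on the log2 scale (limma adjusted p = 0.00662 over probe sets), and higher on the other 2 sets. Its probes were not placed relative to the floxed part, so it checks neither the deletion nor the labels. The mean log2 level of 3 Y-linked genes was 3.09 in control 3 and 8.44 to 8.73 on the other arrays. By these genes control 3 reads as female and the other arrays as male, so sex is not balanced between the groups. Of the 3 genes 0 were called (2 higher without controls 1 and 3). Control 1 and mutant 1 lay farthest apart on the second principal component, with 18.7% of the variance. The changes of the T-box genes and of named list genes were recomputed without each array.

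The 9 genes were compared between mutants and controls with limma over all 18193 genes, taking the brightest probe set of each gene and calling a gene at a Benjamini-Hochberg adjusted p of 0.05. Of the 9 genes 1 was lower and 0 were higher, and the same 1 and 0 held at an unadjusted p under 0.05. The background was 9.72% of all genes called, 5.52% lower and 4.2% higher, so 1 of 9 (11.1%) is a share near that of all genes. The median log2 change of the 9 genes was 0.00, against −0.01 for all genes. Over single probe sets, fitted together with all 34945, 3 of the 19 passed (15.8%), 2 lower and 1 higher, against a background of 5.94% called, 3.25% lower and 2.69% higher. Both lower probe sets belong to Tbx15 and the higher one to Tbx20. The 4 mutant values lay wholly above or below the 4 control values in these 3 probe sets and overlapped in the other 16, where 14.7% of all probe sets showed such a separation. By gene it was 1 of the 9, against 17.8% of all genes.

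**Figure D1:**
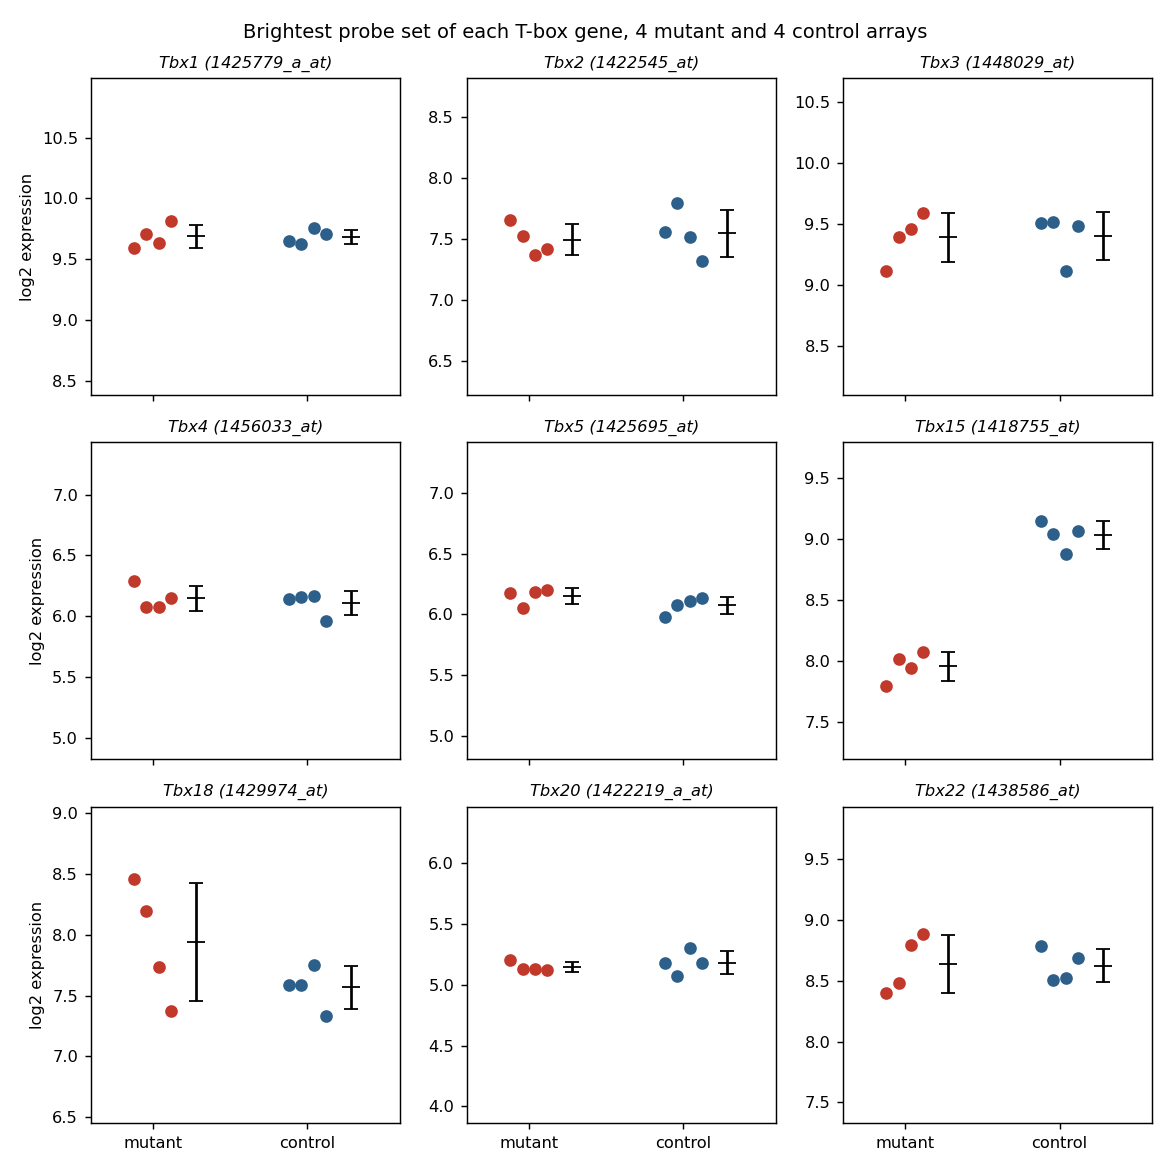
Log2 expression (y axis) of the brightest probe set of each T-box gene on the 4 mutant arrays (red, left) and the 4 control arrays (blue, right), with the mean and SD of each group in black. All panels span the same number of log2 units. Tbx15 is the gene whose groups do not overlap, near 7.95 in mutants and 9.03 in controls, and the mutant points of Tbx18 spread from 7.37 to 8.46.

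Tbx15, whose loss in mice alters coat pattern, ear and skeleton, fell on both of its probe sets. On 1418755_at it read 7.79, 8.01, 7.95 and 8.07 in mutants 1 to 4, against 9.15, 9.04, 8.88 and 9.07 in controls 1 to 4. All 4 mutants lay below all 4 controls. The group means were 7.95 ± 0.12 in mutants and 9.03 ± 0.11 in controls (SD, n = 4 each). The log2 change was −1.08 (SE 0.077, 95% interval −1.25 to −0.91, limma adjusted p = 9.31e-05), or 2.11-fold lower. Ordered from the most negative change, Tbx15 stood at place 66 of the 18193 genes, and by p at place 25.

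The second Tbx15 probe set, 1422195_s_at, was dimmer, and its suffix marks probes that can match more than 1 transcript. It read 5.41, 5.06, 5.18 and 5.27 in mutants 1 to 4, against 5.80, 5.83, 5.70 and 5.76 in controls 1 to 4, again without overlap. Its log2 change was −0.54 (SE 0.078, limma adjusted p = 0.00486), about 1.46-fold lower. The mutant values of this set lie below 5.66, the 95th percentile of 44 olfactory receptor probe sets, genes not expected in a tongue bud, and the controls lie just above it. Of the 9010 genes with 2 or more probe sets, 1.41% had all of them called and 10.8% had some but not all called. Without each array in turn the change of the brighter set ranged from −1.13 to −1.03 and that of the dimmer set from −0.60 to −0.49, and neither lost its call in any of the alternatives tried. In whole buds, fewer cells that express a gene and less of its RNA per cell cannot be told apart.

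**Figure D2:**
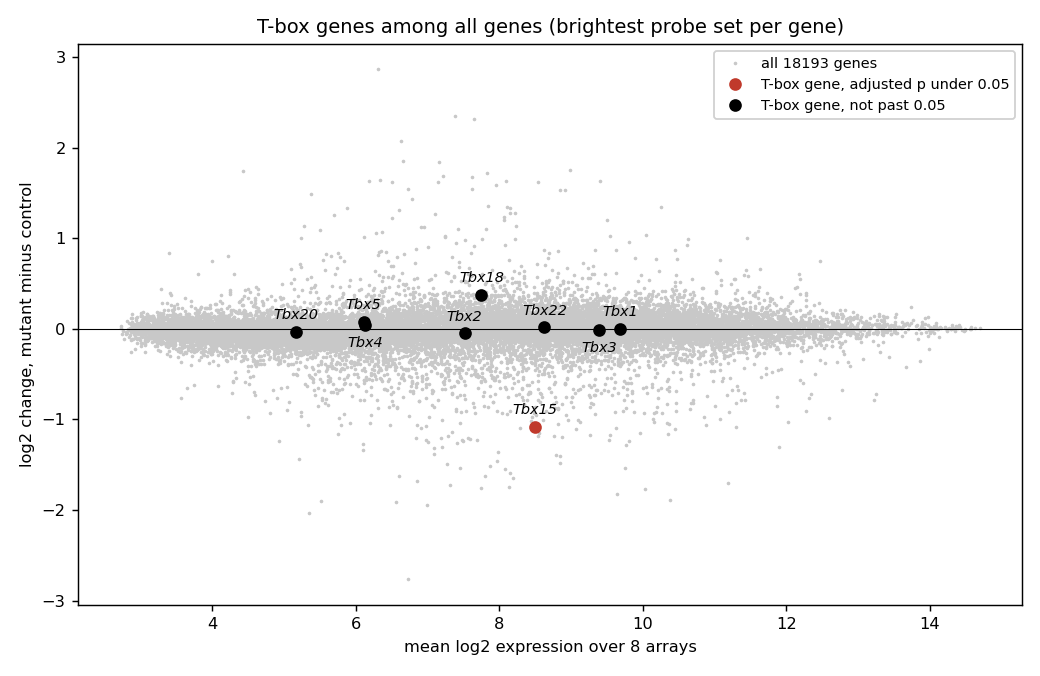
Log2 change, mutant minus control (y axis), against the mean log2 expression over the 8 arrays (x axis) for all 18193 genes (grey points, brightest probe set per gene), with the T-box genes in black and, where called, in red. Tbx15 lies at −1.08, below the dense band of genes of like brightness, and the other T-box genes lie between −0.05 and 0.37.

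Tbx18, the closest relative of Tbx15 and a marker of pericytes and of several embryonic mesenchymes, did not pass. Its brighter probe set 1429974_at read 8.46, 8.20, 7.73 and 7.37 in mutants 1 to 4, against 7.59, 7.59, 7.75 and 7.33 in controls 1 to 4. Mutants 1 and 2 lay above every control, while mutants 3 and 4 lay within the control range. The log2 change was 0.37 with a 95% interval of −0.09 to 0.84 (limma adjusted p = 0.319), and the SD was 0.48 in mutants and 0.17 in controls. The within-group spread of Tbx18 was larger than that of 98.3% of genes, and the interval reaches 1.79-fold upward. The change was 0.20 without mutant 1 and 0.56 without mutant 4, short of the threshold in both.

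The dimmer Tbx18 probe set 1449871_at read 6.31, 6.14, 6.18 and 5.73 in mutants 1 to 4, against 5.88, 5.88, 5.68 and 5.19 in controls 1 to 4. Mutants 1 to 3 lay above all controls and mutant 4 within them. Its log2 change of 0.44 (95% interval 0.04 to 0.83) had an unadjusted p of 0.0326 and did not pass after adjustment (limma adjusted p = 0.202). It was 0.28 without control 4. Of 10 pericyte and smooth muscle markers measured on the same arrays, 0 were higher and 3 lower (30.0%, against 9.72% of all genes). The 3 were Tagln, Acta2 and Cspg4. The other 7 did not pass, with Rgs5, Des, Abcc9 and Kcnj8 at −0.79, −0.36, −0.15 and −0.10. Notch3, Pdgfrb and Myh11 were at 0.14, 0.09 and 0.06. The count was 4 without mutant 1 or control 1, and 1 without control 2. It was 2 without mutant 4 or when the probe sets of a gene were averaged. The mean log2 level of the 10 markers was 8.48 to 8.93 in mutants and 8.84 to 9.12 in controls. The part of these cells in the Tbx18 values was not tested. Des is also on the list of skeletal muscle markers, of which 12 of 14 were lower (85.7%, against 9.72% of all genes). Tagln and Acta2 were lowest in mutant 3 among mutants and in control 1 among controls, as was the skeletal muscle marker Acta1. The part of skeletal muscle in the lower pericyte and smooth muscle markers was not tested.

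Tbx20, a gene of heart muscle and of hindbrain motor neurons, gave 3 probe sets that did not move alike. The brightest, 1422219_a_at, read 5.21, 5.13, 5.13 and 5.13 in mutants 1 to 4, against 5.18, 5.07, 5.30 and 5.18 in controls 1 to 4, with a log2 change of −0.03 (95% interval −0.16 to 0.10, limma adjusted p = 0.774). A second, 1425158_at, averaged 3.97 in mutants and 3.97 in controls. The remaining one, 1453351_at, read 4.58, 4.38, 4.19 and 4.72 in mutants 1 to 4, against 3.79, 3.51, 3.74 and 3.50 in controls 1 to 4.

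On 1453351_at all mutants lay above all controls. Its mean was 4.47 ± 0.23 in mutants and 3.64 ± 0.15 in controls (SD, n = 4 each). It rose by 0.83 on the log2 scale (SE 0.119, limma adjusted p = 0.00486) or 1.78-fold. Its values lie in the range of the olfactory receptor sets, which had a median log2 value of 4.33 and ran from 3.36 at the 5th to 5.66 at the 95th percentile. The brightest Tbx20 set lies in that range too, and no detection calls were used, so the data do not show that Tbx20 itself is expressed. Among the 5878 probe sets with a mean at or below that median, 0.766% were called, 45 in number. The sources used here do not place the 3 probe sets on the gene, and the gene-level result turns with the choice of set: the mean of all sets rose by 0.26 (limma adjusted p = 0.0271). Without each array in turn 1453351_at stayed between 0.75 and 0.92 and kept its call.

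Neuron and heart muscle markers were counted on the same arrays. Of 9 markers in the list of cranial motor and autonomic neurons 5 were lower and 0 higher in mutants (55.6%, against 9.72% of all genes). The 5 were Stmn2, Tubb3 and Elavl4, which neurons express in general, and Phox2a and Vip. The other genes of the list, Isl1, Chat, Slc18a3 and Hoxb1, did not pass, at −0.33, −0.09, −0.08 and 0.10. Chat, Slc18a3 and Hoxb1 had group means of 3.74 to 4.82, within the olfactory receptor range, so the data do not show that they are expressed. For Isl1 all 4 mutants lay below all 4 controls (limma adjusted p = 0.0634). The whole list had a mean log2 level of 5.61 to 5.76 in mutants and 6.39 to 6.62 in controls. Of 8 cardiac muscle markers 3 were lower and 1 higher (50%, against 9.72% of all genes). The lower were Myl4, Tnnt2 and Nkx2-5, all also seen in embryonic skeletal muscle or pharyngeal tissue. The troponin gene Tnni3 was higher by 0.41, at a mutant mean of 5.58 and a control mean of 5.17, both within the olfactory receptor range. Myh6, Myl7, Nppa and Nppb did not pass, at 0.14, 0.04, −0.10 and −0.20. The mean level of the 8 markers was 7.19 to 7.33 in mutants and 7.46 to 7.56 in controls. The part of neurons and heart muscle cells in the Tbx20 values was not tested.

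**Figure D3:**
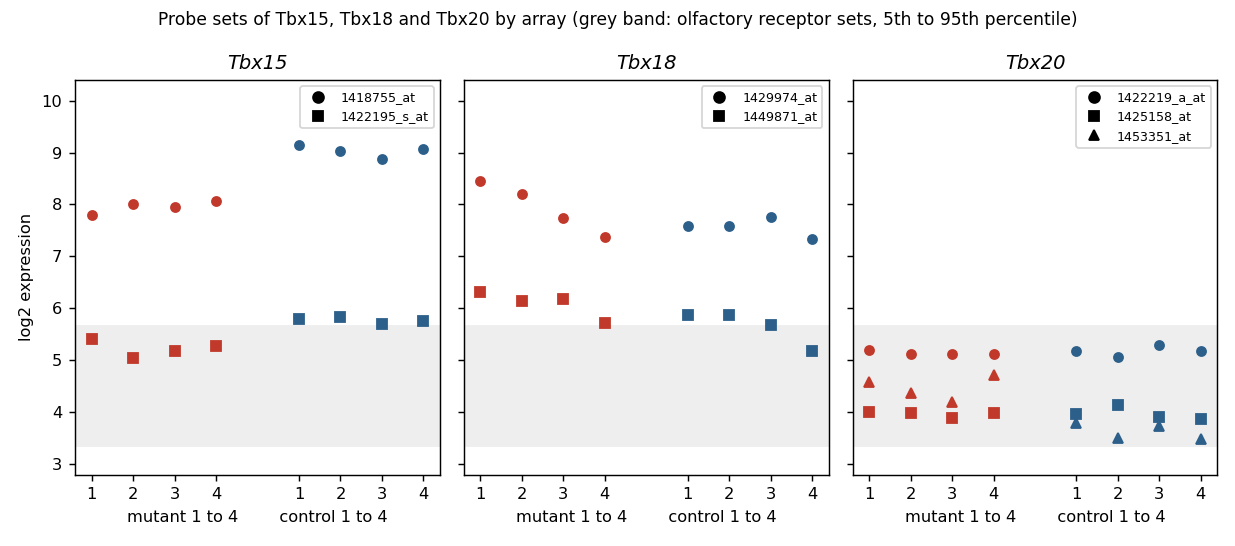
Log2 expression (y axis) of every probe set of Tbx15, Tbx18 and Tbx20 on mutants 1 to 4 (red) and controls 1 to 4 (blue), with 1 marker shape per probe set. The grey band runs from 3.36 to 5.66, the 5th to 95th percentile of 44 olfactory receptor probe sets, and the Tbx20 sets lie inside it on every array.

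Tbx22, the gene of palate and tongue mesenchyme, did not pass. Its single probe set 1438586_at read 8.40, 8.48, 8.79 and 8.89 in mutants 1 to 4, against 8.78, 8.50, 8.52 and 8.69 in controls 1 to 4. The groups overlapped fully in their middle range, with the 2 lowest and the 2 highest values all from mutants. The log2 change was 0.01 with a 95% interval of −0.24 to 0.27 (limma adjusted p = 0.958), which leaves changes of up to 1.21-fold upward within the interval. Mn1, a reported activator of Tbx22 in the palate, was at 9.93 ± 0.06 in mutants and 9.89 ± 0.07 in controls (SD, n = 4 each).

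Tbx1, the pharyngeal mesoderm regulator lost in the DiGeorge deletion, gave the smallest difference of the 9 genes. Its probe set 1425779_a_at read 9.59, 9.70, 9.64 and 9.81 in mutants 1 to 4, against 9.65, 9.63, 9.75 and 9.71 in controls 1 to 4. The groups overlapped, and the 95% interval of the log2 change of 0.00 ran from −0.13 to 0.14 (limma adjusted p = 0.991). Changes beyond 1.10-fold upward lie outside that interval. On the same arrays 12 of 14 skeletal muscle markers were lower (85.7%, against 9.72% of all genes called). The mean log2 level of the 14 was 9.96 to 10.30 in mutants and 10.75 to 11.00 in controls. The same shift of muscle markers accompanied the lower Tbx15 values, and its part in them was not tested.

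The T-box repressors Tbx2 and Tbx3 did not pass on any probe set. Tbx2 read 7.66, 7.53, 7.37 and 7.42 in mutants 1 to 4, against 7.55, 7.80, 7.51 and 7.32 in controls 1 to 4, with a log2 change of −0.05 (95% interval −0.28 to 0.18). Tbx3 had 5 probe sets. The brightest, 1448029_at, read 9.12, 9.39, 9.46 and 9.59 in mutants 1 to 4, against 9.51, 9.52, 9.11 and 9.48 in controls 1 to 4, with a log2 change of −0.01 (95% interval −0.28 to 0.25, limma adjusted p = 0.963).

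The other bright Tbx3 set, 1437479_x_at, whose suffix marks probes that can match other sequences, read 8.99, 9.35, 9.35 and 9.77 in mutants 1 to 4, against 9.26, 9.47, 8.78 and 8.94 in controls 1 to 4. It differed by 0.26 with an interval of −0.17 to 0.68 (limma adjusted p = 0.51). The difference was 0.12 without mutant 4, 0.14 without control 3 and 0.38 without mutant 1, and did not pass in any of these. The remaining 3 Tbx3 sets had group means of 3.62 to 5.30 in mutants and 3.69 to 5.26 in controls, within the range of olfactory receptor sets, and differed by −0.06 to 0.04. Control 3 was the lowest control on both bright sets.

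Tbx4 and Tbx5, the limb and lung bud members, also did not pass. The brighter Tbx4 set 1456033_at read 6.29, 6.08, 6.08 and 6.15 in mutants 1 to 4, against 6.14, 6.16, 6.17 and 5.96 in controls 1 to 4, a log2 change of 0.04 (95% interval −0.12 to 0.19). The brighter Tbx5 set 1425695_at read 6.17, 6.05, 6.18 and 6.20 in mutants 1 to 4, against 5.98, 6.07, 6.11 and 6.13 in controls 1 to 4, a log2 change of 0.08 (95% interval −0.05 to 0.20). Both genes overlapped between the groups. Their dimmer sets differed by −0.02 for Tbx4 and −0.01 for Tbx5, and each of these lies within the olfactory receptor range.

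**Figure D4:**
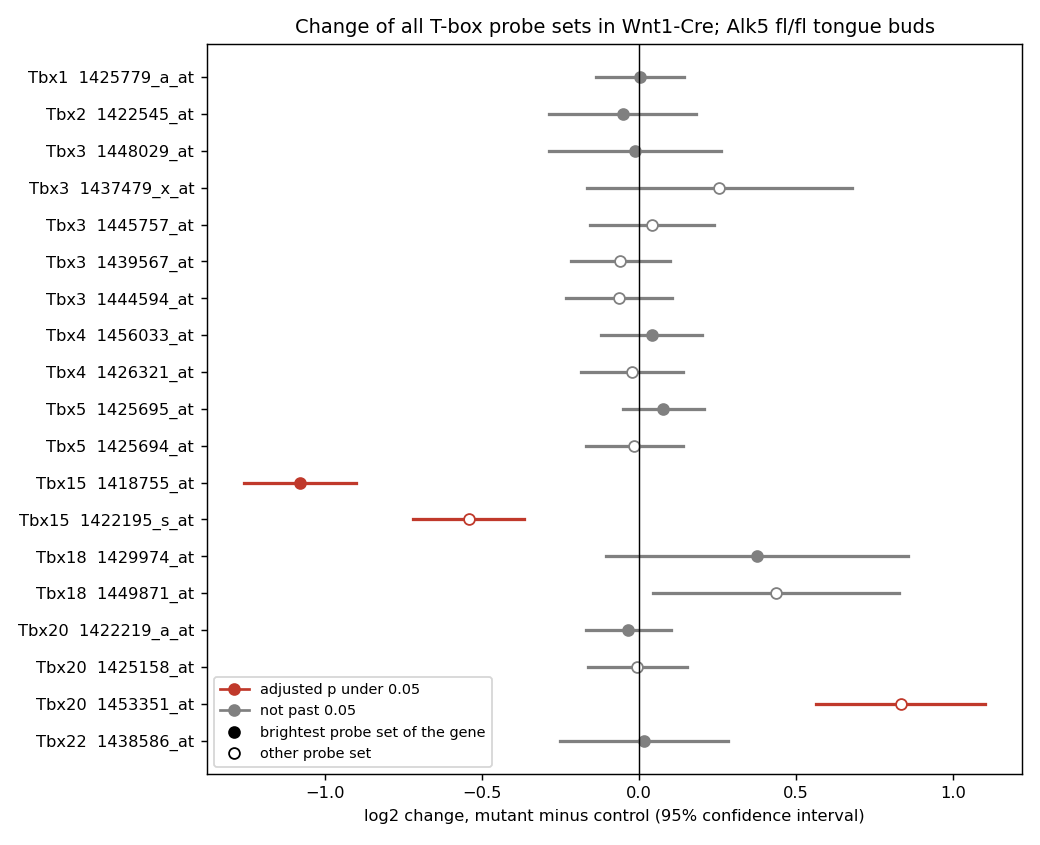
Log2 change, mutant minus control (x axis), of all 19 T-box probe sets with the 95% confidence interval of limma fitted over 34945 probe sets. Filled points are the brightest set of a gene, and red marks an adjusted p under 0.05. The 2 Tbx15 sets lie at −1.08 and −0.54 and the dim Tbx20 set 1453351_at at 0.83, while the other 16 stayed short of the threshold.

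By subfamily, 1 of the 5 genes of the Tbx1 subfamily (Tbx1, Tbx15, Tbx18, Tbx20 and Tbx22) was called in limma (20%, against 9.72% of all genes). Of the 4 genes of the Tbx2 subfamily (Tbx2, Tbx3, Tbx4 and Tbx5) 0 were called, also at an unadjusted p under 0.05. The called gene is Tbx15, and counts this small do not set the subfamilies apart. Tbx2 with Tbx4 and Tbx3 with Tbx5 are neighbouring pairs on chromosomes 11 and 5. Among the 3 measured genes on each side of every member in RefSeq order, 42 genes that are no members, 2 were higher and 0 lower (4.76%, against 9.72% of all genes). These 2 were Ppm1d, a phosphatase gene near Tbx2, at 0.24 (limma adjusted p = 0.0106), and Med13l, a Mediator subunit gene near Tbx3, at 0.33 (0.00939). The 6 neighbours of Tbx15 on chromosome 3 differed by −0.08 to 0.08, and none of them passed. Of these, Hao2, Gm12440 and Spag17 had group means of 3.37 to 4.67, within the olfactory receptor range, so the data do not show that they are expressed.

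The genes whose values followed Tbx15 most closely over the 8 arrays, among genes of at least median brightness, were Inf2, a formin gene, with r = 0.993 and Bex1, a gene of neural and developing tissue, with r = 0.989. The most opposed were Aldh2, an aldehyde dehydrogenase gene, with r = −0.995 and Rpf1, a ribosome assembly gene, with r = −0.993. The 8 points fall into the 2 genotype groups, so these likeness values mostly describe the group difference. Inf2 differed by −0.34, Bex1 by −0.31, Aldh2 by 0.22 and Rpf1 by 0.18, each past an adjusted p of 0.05 in limma.

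Of the other T-box family genes, Tbx6, Tbx19, Tbx21, Eomes, Tbr1 and Mga were measured. In limma 0 of 6 were called, against 9.72% of all genes, and a count this small does not set them apart from all genes. At an unadjusted p under 0.05 there were 0, and the log2 changes ran from −0.12 to 0.14. Mga, a large T-box protein that also binds Max, averaged 9.36 ± 0.07 in mutants and 9.22 ± 0.18 in controls (SD, n = 4 each). Its control 1 value of 9.49 stood above 9.12 to 9.13 in the other controls, and without control 1 Mga rose by 0.23 (limma adjusted p = 0.034). Without controls 1 and 3, Tbx6, a gene of early paraxial mesoderm, was called lower, at −0.36 (limma adjusted p = 0.0125), against −0.12 on all arrays. Tbx6, Tbx21 and Eomes averaged within the olfactory receptor range of 3.36 to 5.66 in both groups, and Tbr1 below it. The data do not show that these genes are expressed.

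Among 13 measured partners and corepressors of T-box proteins, 2 rose and 1 fell (23.1%, against 9.72% of all genes), with a median log2 change of −0.01, the same to 2 decimals as that of all genes. Sall4, a zinc-finger partner of Tbx5 in the mouse heart and limb, read 7.15, 7.13, 7.29 and 7.05 in mutants 1 to 4, against 5.54, 5.47, 5.48 and 5.58 in controls 1 to 4 (log2 change 1.64, limma adjusted p = 2.9e-06). Tle4, a Groucho corepressor, rose by 0.45 (limma adjusted p = 0.00155), while its relatives Tle1, Tle2 and Tle3 did not pass. Nkx2-5, a homeodomain partner of Tbx5 and Tbx20, fell by 0.34 (limma adjusted p = 0.00785), at 8.01 ± 0.04 in mutants and 8.35 ± 0.11 in controls (SD, n = 4 each).

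Of 16 reported upstream regulators of T-box genes, 4 rose and 0 fell (25%, against 9.72% of all genes called and 4.2% higher), with a median of 0.07. The count was 2 without mutant 2, mutant 3 or control 2. Foxc2, a forkhead activator of Tbx1, read 8.88, 8.90, 8.84 and 8.84 in mutants 1 to 4, against 7.94, 7.35, 7.72 and 7.32 in controls 1 to 4, a log2 change of 1.28 (SE 0.127, limma adjusted p = 0.000481). Its relative Foxc1 differed by 1.02 with overlapping groups and did not pass (limma adjusted p = 0.0998). Aldh1a2, the enzyme that makes retinoic acid, which represses Tbx1 and induces Tbx5, rose by 1.34 (limma adjusted p = 0.0081). Tbx1 and Tbx5 themselves differed by 0.00 and 0.08 on these arrays.

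The other genes of that list that rose were Gli1 at 0.37 and the chromatin remodeller gene Chd7, which interacts with Tbx1 in mice, at 0.28. Gli1 was short of the threshold in 6 of the 8 fits that left out 1 array (0.31 to 0.43 over the 8). Chd7 was short of it in 6 of these too (0.24 to 0.32 over the 8) and without controls 1 and 3 (0.22). The BMP ligand genes Bmp2, Bmp4 and Bmp7, inducers of Tbx2 and Tbx3, differed by 0.03, 0.06 and 0.08 and did not pass.

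BMP response genes rose in 5 of 8 cases and fell in 0 (62.5%, against 4.2% of all genes higher), with a median of 0.36. They were Bambi, a pseudoreceptor, Id2, Smad6, Id3 and Id1, by 0.67, 0.54, 0.45, 0.39 and 0.33. The list was known to have risen from earlier results on these arrays and is no independent evidence of its direction. The BMP-induced Tbx2 and Tbx3 gave −0.05 and −0.01 beside these values, and Msx1 and Msx2, homeobox genes also induced by BMP, gave −0.23 and −0.03 without passing. Msx1 read 7.71 in control 2, against 6.82 to 6.90 in the other controls. Msx2 averaged 5.63 in mutants and 5.66 in controls, at the upper end of the olfactory receptor range.

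Of 12 reported T-box targets, 2 fell and 0 rose (16.7%, against 9.72% of all genes), with a median of −0.06. The count was 0 with the mean of all probe sets, and 1 in 6 of the 8 fits that left out 1 array (all but those without mutant 4 or control 3). Cdkn1a, the cell cycle inhibitor that Tbx2 and Tbx3 repress, fell by 0.50, at 10.52 ± 0.11 in mutants and 11.02 ± 0.14 in controls (SD, n = 4 each; limma adjusted p = 0.00509). With the mean of all its probe sets it gave −0.37 and did not pass (0.196). Myod1, a muscle determination gene downstream of Tbx1, fell by 0.31 but was short of the threshold with the mean of all probe sets (−0.19) and in those 6 fits (−0.36 to −0.26 over the 8), and without controls 1 and 3. Cdh1, Gja1, Fgf10 and Myf5, targets of different T-box proteins, differed by −0.29, 0.14, 0.29 and 0.10 and did not pass.

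Of 16 measured transcription factors of tongue and palate mesenchyme, 3 rose and 2 fell (31.2%, against 9.72% of all genes), with a median of 0.12. The count of 5 was 3 without mutant 1, 2 or 4 or without control 3 or 4. Barx1 rose by 0.67, Prrx1 by 0.76 and Shox2 by 0.98, while Pax9 fell by 0.81 and Meox2 by 0.55. Shox2 was short of the threshold in 6 of the 8 fits that left out 1 array (0.83 to 1.20 over the 8). Meox2 was short of it in 6 too (−0.66 to −0.41 over the 8), and without controls 1 and 3 these 2 and Prrx1 (0.67) were all short of it.

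**Figure D5:**
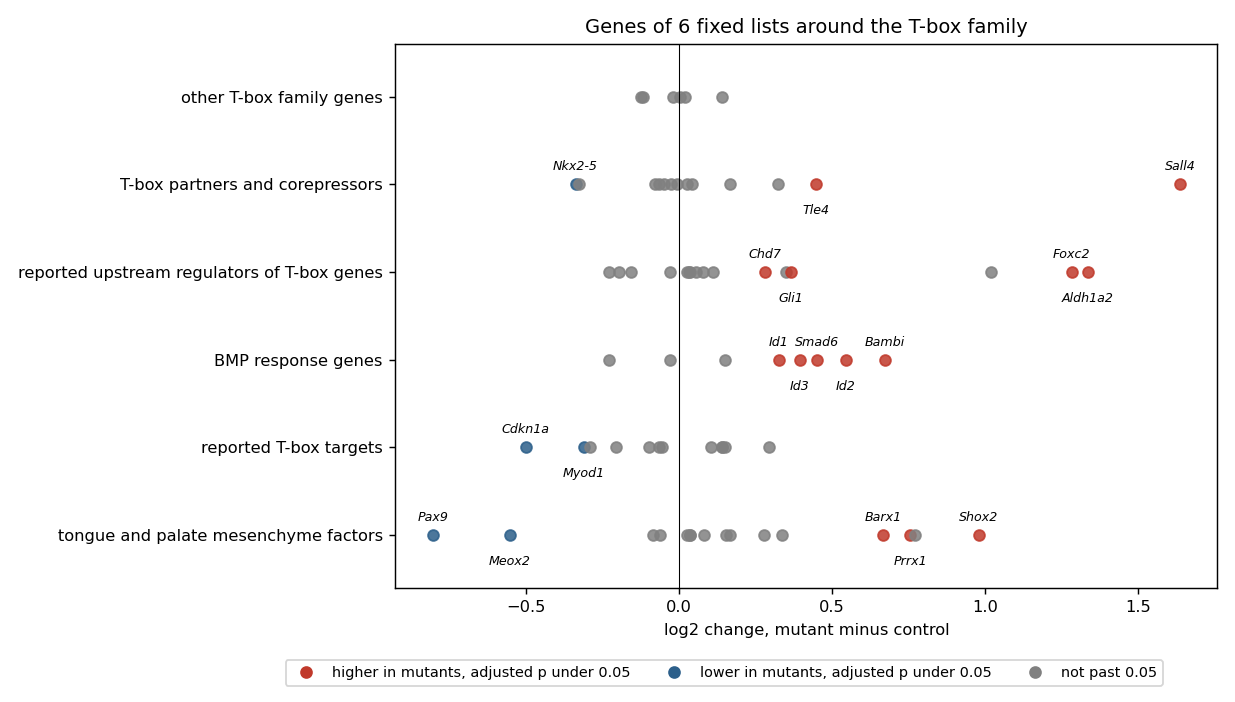
Log2 change, mutant minus control (x axis), of the measured genes of 6 lists around the T-box family (rows), with genes past an adjusted p of 0.05 in red where higher and in blue where lower, and the called genes named. The other T-box family genes sit between −0.12 and 0.14, while Sall4 at 1.64, Aldh1a2 at 1.34 and Foxc2 at 1.28 lie farthest to the right.

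Markers of other cells in the bud are given as a whole for these arrays, with the percent called, against 9.72% of all genes. Of 13 epithelial markers 0 rose and 1, Krt18, fell (7.69%), with a mean log2 level of 9.37 to 9.82 in mutants and 9.67 to 9.87 in controls. That count was 0 without mutant 1, 2 or 3 or control 2, 3 or 4, 2 without mutant 4 and 3 without control 1. Of 8 endothelial markers 3 rose (37.5%), with 8.41 to 8.67 in mutants and 8.20 to 8.28 in controls. That count was 2 without mutant 1, 2 or 4, without control 3, and without controls 1 and 3. Esam, 1 of the 3, was short of the threshold in 7 of the 8 fits that left out 1 array. Of 9 macrophage markers 4 fell (44.4%), with 7.04 to 7.66 in mutants and 7.59 to 7.75 in controls. That count was 7 without mutant 1, 1 without mutant 2, 3 or 4 or control 2, 2 without control 3 or 4, and 0 without controls 1 and 3. Of 7 cartilage and perichondrium markers 1 rose (14.3%), with 7.01 to 7.07 in mutants and 6.69 to 7.02 in controls. The part of these cells in the T-box values was not tested.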

How the data were processed

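RNA from 4 mutant and 4 control tongue buds was measured on biotin-labelled one-colour arrays, per the labels' protocols. The values the authors deposited are on a log2 scale, 1 per probe set, and were made with RMA, per the submitters' processing notes. The RMA version is not given in the sources used here. RMA removes background and aligns the arrays, so shifts shared by most genes are not seen. No detection calls were used.

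The arrays hold 45101 probe sets, of which 34945 name exactly 1 gene and were used. Left out were 64 control sets, 932 with several genes and 9160 with none. A RefSeq identifier was found for 34741 of those used. Mutants were compared with controls by limma 3.58.1 in R 4.3.3 (two-sided, eBayes, Benjamini-Hochberg adjustment), once over the brightest probe set of each of 18193 genes and once over all 34945 probe sets. Values of brightest sets come from the first fit, and those of other sets from the second. The number of arrays limits the precision. The pipeline was tested on simulated data.

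The T-box genes and the 15 gene lists were chosen with earlier results of these data known. Of the 162 list entries, 10 are not analysed here. Named genes are all members, list genes past an adjusted p of 0.05, the 2 of smallest p in each list, and the 2 most like and 2 most opposed to a called member, besides Tgfbr1. Other list genes, and genes beside the members on their chromosomes, were named after their values were seen. CpG counts were added to the planned motif search. The alternatives were a replicate block, quantile normalization applied again, centring on array medians, a filter on dim probe sets, other ways to represent a gene, variance moderation and left-out arrays. Same-numbered mutant and control arrays did not deviate together (r = −0.40 to 0.02 across genes). That gives no sign of a pairing but cannot exclude a shared litter or day, on which the labels are silent.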

Additional observations from a re-analysis of the deposited data

Results flagged for a closer look

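In groups of 4 arrays, a value was listed when its gap to the nearest other value exceeded the 95% limit of Dixon's test. Of 156 groups checked over members and named genes, 10 were listed, and chance gives about 1 in 20; of the 38 groups of T-box probe sets, 5 were. Control 3 was low on the Tbx3 sets 1448029_at, at 9.11 against 9.48 to 9.52 in the other controls, and 1445757_at, at 5.0 against 5.33 to 5.35. The Tbx4 set 1456033_at read 5.96 in control 4, against 6.14 to 6.17. The Tbx20 set 1422219_a_at read 5.21 in mutant 1, against 5.13 in the other mutants, and 1425158_at read 3.89 in mutant 3, against 3.98 to 4.00. Outside the 9 genes, Mga read 9.49 in control 1, against 9.12 to 9.13, and Chd7 8.14 in mutant 4, against 8.30 to 8.33. Shox2 read 7.60 in mutant 3, against 8.12 to 8.20 in the other mutants. Pax9 read 7.86 in mutant 4, against 7.37 to 7.45, and Myog 12.22 in mutant 3, against 12.38 to 12.40.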

How the results depend on the processing

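Tbx15 kept its direction and call in all 18 alternatives (−1.13 to −0.81, limma adjusted p 8.04e-06 to 0.00604), and its dimmer probe set in all 14. The Tbx20 set 1453351_at kept its call in the 14 alternatives that tested it (0.75 to 0.96). The count of T-box genes was 2, with Tbx20 added as higher, when a gene was the mean of all its probe sets (Tbx20 0.26), when sets ending in _x_at, _s_at or _a_at were left out (0.83), and with the set of highest variance (0.83). These differ by which Tbx20 set stands for the gene. With dim probe sets left out, 1 T-box probe set was called, since 2 of the 3 were not tested.

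Signs turned for uncalled values near 0. Leaving out each array gave ranges of −0.041 to 0.033 for Tbx1, −0.13 to 0.031 for Tbx2, −0.11 to 0.078 for Tbx3, −0.0082 to 0.064 for Tbx4, −0.072 to 0.0060 for Tbx20 and −0.068 to 0.095 for Tbx22. For single sets it gave −0.042 to 0.054 for 1425158_at of Tbx20, −0.060 to 0.036 for 1425694_at of Tbx5, −0.070 to 0.011 for 1426321_at of Tbx4 and −0.045 to 0.081 for 1445757_at of Tbx3. Repeated quantile normalization gave −0.016 for Tbx1, −0.00836 for Tbx22, 0.013 for 1425158_at and 0.012 for 1425694_at. The mean of all sets gave 0.032 for Tbx3. The set of highest variance gave 0.26 for Tbx3, −0.023 for Tbx4 and −0.015 for Tbx5. Without controls 1 and 3, Tbx20 gave 0.025, 1425694_at 0.014 and 1445757_at −0.047. The cause was not tested.

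Whether the replicate numbers pair the samples is not known. With the replicate number as a block, 966 genes were called, against 1768 without it. T-box genes stayed at 1 called and T-box probe sets came to 4, with the Tbx18 set 1449871_at added (adjusted p = 0.0464). Leaving out each array gave 1143 to 1583 called genes, and 40 to 53 called genes over the lists, against 50 with all arrays.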
